A study of Mus musculus with 8 samples.

Results

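The combination of EZM8266 and olaparib was compared with DMSO in ID8-OR cells, the olaparib-resistant derivative of ID8, an ovarian cancer line of the mouse. The comparison used 2 combination libraries and 2 DMSO libraries, chosen by their titles, which are 4 of the 8 libraries of the study. It covered 6379 of the 54146 rows of the deposited count table, those that passed a filter on low counts. The other libraries, 2 with olaparib alone and 2 with EZM8266 alone, entered the same fit and give the values set beside the combination.

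Each group was exposed for 72 hours. DMSO is the solvent control, olaparib is a PARP inhibitor, and EZM8266 is described by the submitters as an inhibitor of EHMT1 and EHMT2. All cells, the DMSO controls included, are resistant to olaparib, so no value here compares resistant with sensitive cells. The doses and the way the resistance was raised are not given in the sources used here. One combination library, replicate 2, carries the treatment label Olaparib_EZM8267, and it was kept in the combination group that its title names. The labels speak of treatment or transfection replicates without saying whether these were separate cultures, so each p-value measures the spread between libraries, which may be technical.

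EHMT1 and EHMT2 (GLP and G9a) place the repressive dimethyl mark on lysine 9 of histone H3, which keeps genes and retroelements silent in euchromatin. PARP1 and PARP2 attach ADP-ribose chains to proteins at DNA breaks, and inhibitors such as olaparib hold these enzymes on DNA. Cells that sense nucleic acids out of place, from DNA damage or from retroelements, can answer with type I interferon, which switches on a large set of antiviral genes and chemokines such as Cxcl10.

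The libraries held 19743299 to 30329847 fragments, of which 4.54 to 5.4% were assigned to a row, giving totals of 973382 to 1680974 counts. A count of 3 corresponds to 1.78 to 3.08 CPM (counts scaled to the library total), counting error alone. Most counts lay on the strand opposite to the row they were assigned to. Only 15.2% of rows share at least 50 exon bases with an opposite-strand gene, yet these rows took 83.8 to 88.6% of the counts. A row is therefore named here by that opposite-strand gene, with the row's own symbol in parentheses, and its value is read as RNA from the strand of that gene. Such a row covers only a stretch of the gene, and fragments from elsewhere in the row count too. DMSO replicate 1 stood apart with olaparib replicate 2 by the Gm10800 row, a predicted gene over satellite repeats, which took 2.25% and 1.86% of their counts and at most 0.439% elsewhere. The submitters' sample numbers form one block for all libraries with EZM8266 and another for all libraries without it, so a difference between the blocks and an effect of EZM8266 cannot be told apart.

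With the combination, fragments on the strand of the serine protease inhibitor Serpinb9b, the coagulation factor subunit F13a1, the interferon-induced genes Cxcl10 and Rnf213 and the drug efflux pump Abcb1a rose against DMSO, and those on the strand of the matrix glycoprotein Thbs1 fell. Of the 6379 rows, 14 passed a Benjamini-Hochberg adjusted p of 0.05 in edgeR's quasi-likelihood test (0.219%). The rows that rose numbered 12 (0.188%) and those that fell 2 (0.0314%). At an unadjusted p under 0.05 there were 312 rows. EZM8266 alone against the same DMSO libraries had 13 called rows of 6379, 12 higher and 1 lower, and olaparib alone had none. Called with EZM8266 alone as well were the rows of Serpinb9b, Gdnf, F13a1, Thbs1 (Gm29233), Trdc, Tmem140, Abcb1a, Gm20186 and Gm49314. Of the 14 rows, 11 overlap an exon on the other strand, 8 of them an exon of a protein-coding gene, by 74 to 2168 bases. The median log2 fold change over all tested rows was -0.02, with 47% of rows above 0.

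**Figure D1:**
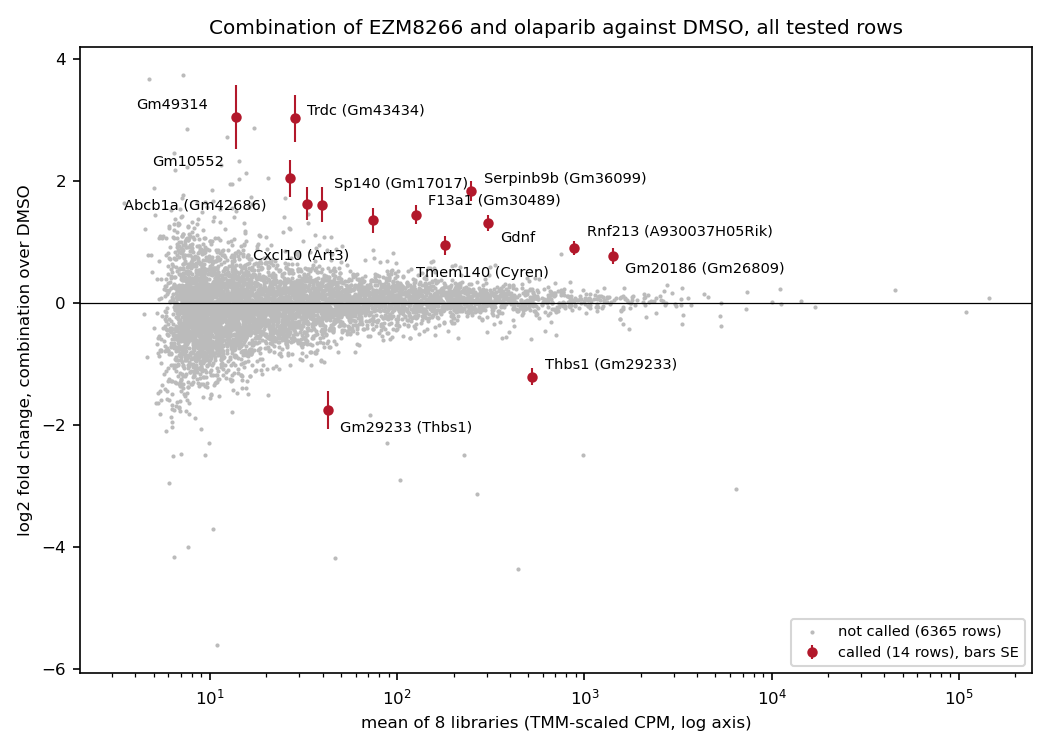
Log2 fold change of the combination over DMSO for each of the 6379 tested rows against the mean of the 8 libraries in TMM-scaled CPM (log axis). The 14 rows past the threshold are red with the SE as bars, 12 above 0 and 2 below, and the rows that did not pass are grey.

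The stretches below are 1 piece each of the exon overlap that links a row to Serpinb9b, Thbs1 or F13a1, shown because the naming of these rows rests on such overlaps. Counts were taken over all exons of a row, not over these pieces alone. They are written on the strand of the gene from the GENCODE M21 transcripts, build mm10, with coding bases in capitals.
Serpinb9b, chr13:33032916-33033053, plus strand: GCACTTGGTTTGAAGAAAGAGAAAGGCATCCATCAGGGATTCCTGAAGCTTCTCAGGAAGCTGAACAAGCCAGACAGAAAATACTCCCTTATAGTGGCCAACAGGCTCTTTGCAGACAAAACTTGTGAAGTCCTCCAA
Thbs1, chr2:118123451-118123560, plus strand: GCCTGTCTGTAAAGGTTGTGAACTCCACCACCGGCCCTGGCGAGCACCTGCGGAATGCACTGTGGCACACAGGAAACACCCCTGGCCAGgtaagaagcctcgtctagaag
F13a1, chr13:36970777-36970836, minus strand: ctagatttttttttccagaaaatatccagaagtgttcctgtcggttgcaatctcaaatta
The Serpinb9b stretch is coding over all 138 bases and is part of 278 overlapping bases. The Thbs1 stretch has 89 coding bases among 110, of 208 overlapping bases in all. The F13a1 stretch holds no coding base, and only 14 of the 74 overlapping bases of that row are coding, so the link of this row to F13a1 rests on few bases.

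Serpinb9b encodes a member of the clade B serpins, intracellular inhibitors of serine proteases. The Gm36099 row on its strand (chromosome 13, 33031202 to 33034560, wholly inside the Serpinb9b gene) had 111 and 92 CPM in the DMSO libraries and 366 and 355 CPM in the combination libraries. Both combination libraries lay far above both DMSO libraries. The means were 101 ± 13.2 and 360 ± 7.67 CPM (SD, n = 2). The rise was 1.84 ± 0.16 on the log2 scale, with its SE, at an edgeR adjusted p of 0.000199. EZM8266 alone gave 362 and 441 CPM and olaparib alone 143 and 120 CPM. The combination libraries thus sat within or just below the range reached with EZM8266, and the fitted difference between them was -0.15 ± 0.15. The other serpins of the list, measured through 2 rows on the strand of Serpinb6a, had 0.81 ± 0.55 and 0.12 ± 0.16 and were not called.

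F13a1 encodes the A subunit of coagulation factor XIII, a transglutaminase that cross-links fibrin. The Gm30489 row lies wholly inside F13a1 (chromosome 13, 36963239 to 36973329). It had 61.7 and 69.2 CPM in DMSO and 189 and 171 CPM with the combination, with no overlap. The means were 65.4 ± 5.28 and 180 ± 13.3 CPM (SD, n = 2), and the log2 fold change was 1.45 ± 0.16 (edgeR adjusted p 0.000947). It had 174 and 197 CPM with EZM8266 alone and 69.2 and 73.2 CPM with olaparib alone. The olaparib libraries stayed near DMSO and the EZM8266 libraries near the combination, from which they differed by -0.04 ± 0.15 (combination minus EZM8266). In the list of coagulation and complement genes, Cd55, a surface inhibitor of complement (Gm16083 row), had 12.7 and 11.7 CPM in DMSO and 23.2 and 24.4 CPM with the combination (log2 0.96 ± 0.36, adjusted p 0.854). C1s1, a protease of the C1 complex (Gm16567 row), had 0.29 ± 0.12.

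Gdnf encodes a secreted neurotrophic factor that signals through the RET receptor. Its row (chromosome 15, 7810846 to 7837575) had 169 and 190 CPM in DMSO and 446 and 451 CPM with the combination, and the groups did not overlap. The means were 180 ± 14.7 and 449 ± 3.58 CPM (SD, n = 2), and the row rose by 1.32 ± 0.13 on the log2 scale (edgeR adjusted p 0.000485). With EZM8266 alone the row had 360 and 406 CPM, below both combination libraries, and with olaparib alone 205 and 213 CPM. The combination exceeded EZM8266 by 0.23 ± 0.12 and was not called against it. No gene is annotated on the other strand of this row, so its fragments lie on the strand opposite to Gdnf and the row is no direct measure of Gdnf transcripts. The share of fragments counted on the wrong strand, taken from the Rmrp row over the sum of itself and the Ccdc107 row that overlaps it and used as a relative measure, was 1.24% and 1.68% in DMSO and 1.44% and 1.21% with the combination, and its part in the Gdnf value was not tested.

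Thbs1 encodes thrombospondin 1, a secreted glycoprotein that binds matrix and cell surface receptors, limits vessel growth and can activate latent TGF-beta. The Gm29233 row on its strand (chromosome 2, 118123451 to 118124047) had 743 and 708 CPM in DMSO and 312 and 317 CPM with the combination. Both combination libraries were below both DMSO libraries, and the row fell by 1.21 ± 0.14 on the log2 scale (means 726 ± 24.8 and 314 ± 3.2 CPM, SD, n = 2, edgeR adjusted p 0.0015). EZM8266 alone gave 303 and 398 CPM and olaparib alone 681 and 736 CPM. The EZM8266 libraries lay on both sides of the combination, while those with olaparib lay near DMSO, 1 of them below both DMSO libraries. The second row that fell is the row of Thbs1 itself (chromosome 2, 118111876 to 118127133), which counts the other strand of the same place. It had 60.7 and 79.7 CPM in DMSO and 20.1 and 21.4 CPM with the combination and fell by 1.76 ± 0.31 (adjusted p 0.0388). The Thbs1 row made up 7.55% and 10.1% of the counts of both rows in DMSO and 6.06% and 6.34% with the combination. The Thbs1 row has 6073 exon bases and the Gm29233 row 281, so this share is not a share between strands of one stretch. The rows overlap at 208 bases, 3.42% of the Thbs1 row. As both lie at the Thbs1 gene, they were not taken as separate observations of Thbs1.

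**Figure D2:**
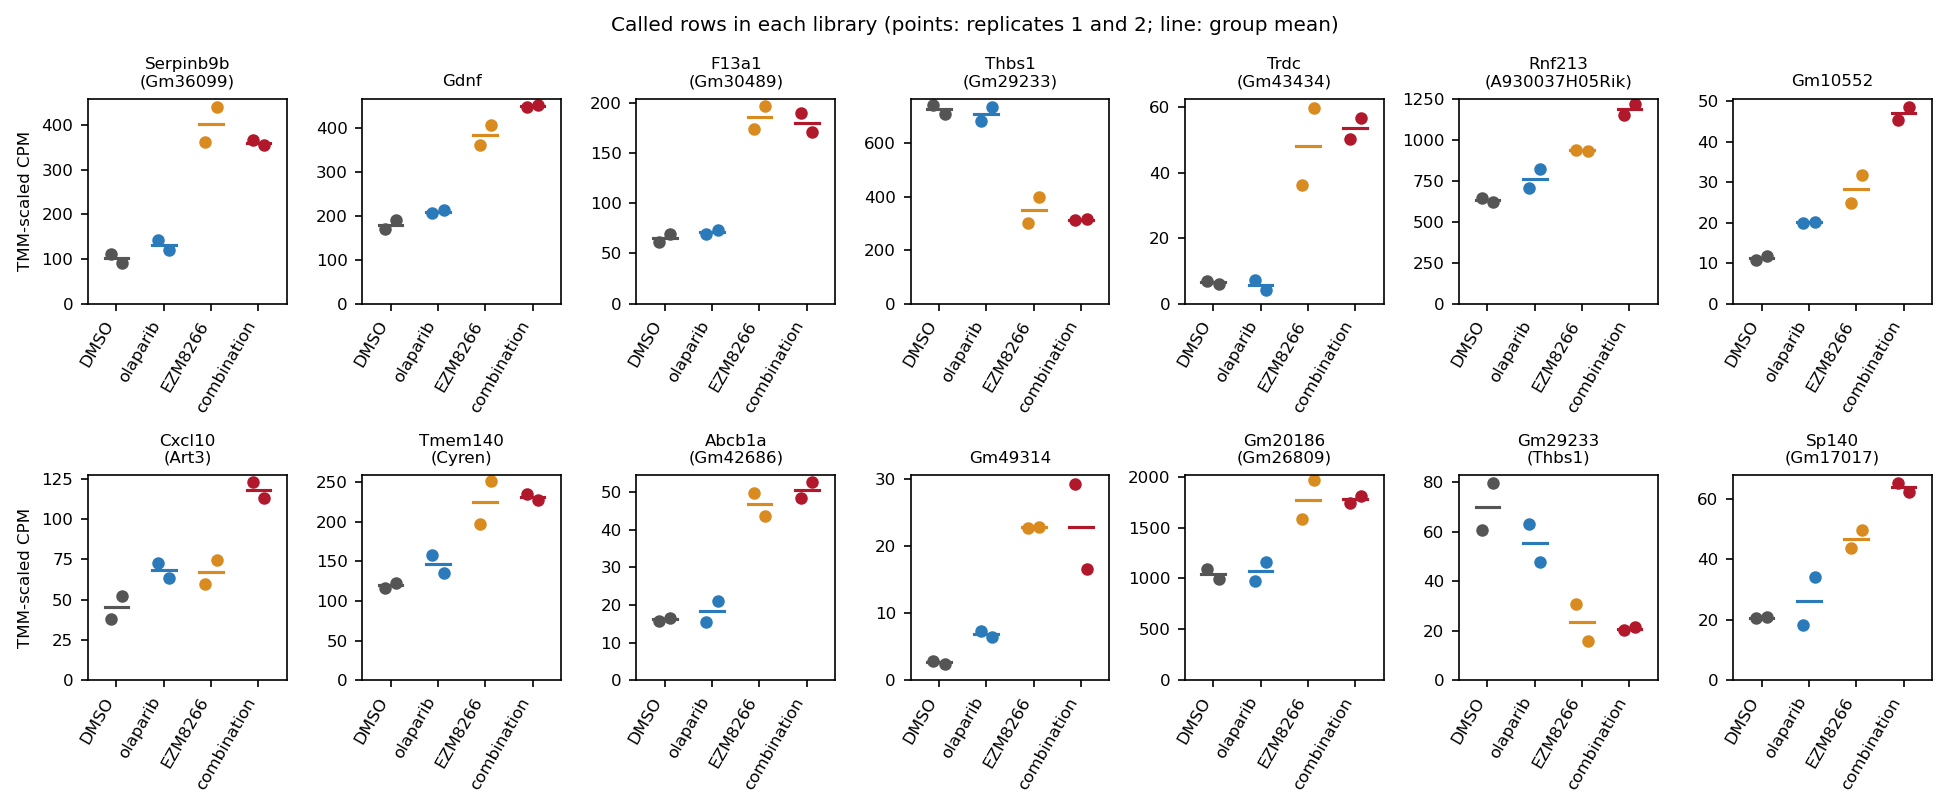
TMM-scaled CPM of the 14 rows past the threshold in each of the 8 libraries, with 1 panel per row, points for replicates 1 and 2, lines for the group means and vertical axes from 0. In every panel the 2 combination points lie on one side of the 2 DMSO points. The same holds for 17.1% of all tested rows with the combination higher and 18.8% with it lower. Thbs1 (Gm29233) fell from 743 and 708 to 312 and 317 CPM.

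Among genes that interferon induces, Cxcl10, Rnf213 and Sp140 were called higher with the combination. Cxcl10 is a secreted chemokine that draws T cells and natural killer cells through the receptor CXCR3. The Art3 row on its strand (chromosome 5, 92331827 to 92414628) had 38.2 and 52.5 CPM in DMSO and 123 and 113 CPM with the combination. All 4 libraries with a single compound lay between these groups, at 72.8 and 63.4 CPM with olaparib and 59.8 and 74.6 CPM with EZM8266. The means of DMSO and the combination were 45.3 ± 10.1 and 118 ± 6.95 CPM (SD, n = 2), and the rise was 1.36 ± 0.21 on the log2 scale (edgeR adjusted p 0.016). The combination exceeded EZM8266 by 0.82 ± 0.20 and olaparib by 0.79 ± 0.20, and neither difference was called. Its overlap with Cxcl10 is 133 untranslated exon bases, 3.38% of the row.

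Rnf213 encodes a very large ubiquitin ligase with antimicrobial roles. The A930037H05Rik row on its strand (chromosome 11, 119448788 to 119491298) overlaps 1476 exon bases, 1307 of them coding in at least 1 transcript. It had 643 and 622 CPM in DMSO, 706 and 825 CPM with olaparib, 942 and 934 CPM with EZM8266 and 1153 and 1221 CPM with the combination. The 4 groups did not overlap and stood in that order. The combination had a log2 fold change of 0.91 ± 0.12 over DMSO (edgeR adjusted p 0.00338), and exceeded EZM8266 by 0.34 ± 0.12 and olaparib by 0.63 ± 0.12 without a call in either.

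Sp140 encodes a nuclear body protein that reads histone marks. The Gm17017 row on its strand (chromosome 1, 85641222 to 85650585) had 20.6 and 21 CPM in DMSO and 65.5 and 62.4 CPM with the combination, a log2 fold change of 1.61 ± 0.29 (edgeR adjusted p 0.0412). EZM8266 alone gave 43.9 and 49.7 CPM, between these groups, and olaparib alone 18.4 and 34.2 CPM. A further called row, Gm10552 (chromosome 1, 85604085 to 85611896), lies inside the body of Sp140 on the other strand and shares no 50 exon bases with it. It had 10.8 and 11.7 CPM in DMSO and 45.3 and 48.7 CPM with the combination (2.04 ± 0.30, adjusted p 0.0123). The Gm10552 row lies wholly inside the body of Sp140 and the Gm17017 row over 92.1% of its exon bases, so they are not separate observations of 2 genes. Within 500 kb of Gm10552 lies the row on the strand of C130026I21Rik (A530040E14Rik, chromosome 1, 85105946 to 85114035), which had 17.6 and 17.9 CPM in DMSO and 43.3 and 40 CPM with the combination (1.22 ± 0.29, adjusted p 0.183).

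Tmem140 encodes a small membrane protein. The Cyren row on its strand (chromosome 6, 34871771 to 34878060) overlaps 2168 of its exon bases, 555 of them coding. It had 117 and 123 CPM in DMSO and 235 and 227 CPM with the combination, with no overlap, and rose by 0.94 ± 0.16 (edgeR adjusted p 0.0281). EZM8266 alone gave 197 and 252 CPM, on both sides of the combination.

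The list of type I interferon response genes has 69 members, of which 10 had a tested row on their strand. Of these, 2 were called higher (Sp140 and Rnf213) and none lower, 9 were above 0, and the median log2 fold change was 0.74. Of all 6379 tested rows, 0.188% were called higher. Over the 3554 tested rows that overlap an opposite-strand exon, 11 were called (0.31%), the median was 0.03 and 55.4% were above 0. The groups did not overlap in 9 of the 10 rows, all with the combination higher, where the same holds for 17.1% of all tested rows (18.8% with the combination lower) and for 22.3% of the rows over an opposite-strand exon. The list was drawn up with earlier results of these libraries known, so these counts describe it and test nothing.

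Among its members past no threshold, Usp18, the protease that removes ISG15 from proteins (Gm44148 row), had 0.979 and 5.56 CPM in DMSO, 1 of them under the floor of 3 counts, and 27.2 and 22.4 CPM with the combination. Its log2 fold change was 2.72 ± 0.59 with an edgeR adjusted p of 0.136. Adar, the enzyme that edits adenosines in double-stranded RNA (Chrnb2 row), had 153 and 179 CPM in DMSO and 261 and 250 CPM with the combination (0.62 ± 0.14, adjusted p 0.136). Single compounds left the Adar row at 191 to 211 CPM, between the 2 groups. Parp9 and its partner ubiquitin ligase Dtx3l had 0.88 ± 0.27 and 0.81 ± 0.25, and they share the same overlap of 458 bases. Ifi35 (Gm11626 row) had 0.68 ± 0.22, with 84.2 and 62.4 CPM in DMSO and 106 and 127 CPM with the combination. Eif2ak2, the kinase PKR that double-stranded RNA activates (Gm26637 row, shared with Sult6b1), had 0.31 ± 0.16, and Znfx1 (Zfas1 row), at 4.87 to 11.1 CPM, had -0.31 ± 0.58.

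**Figure D3:**
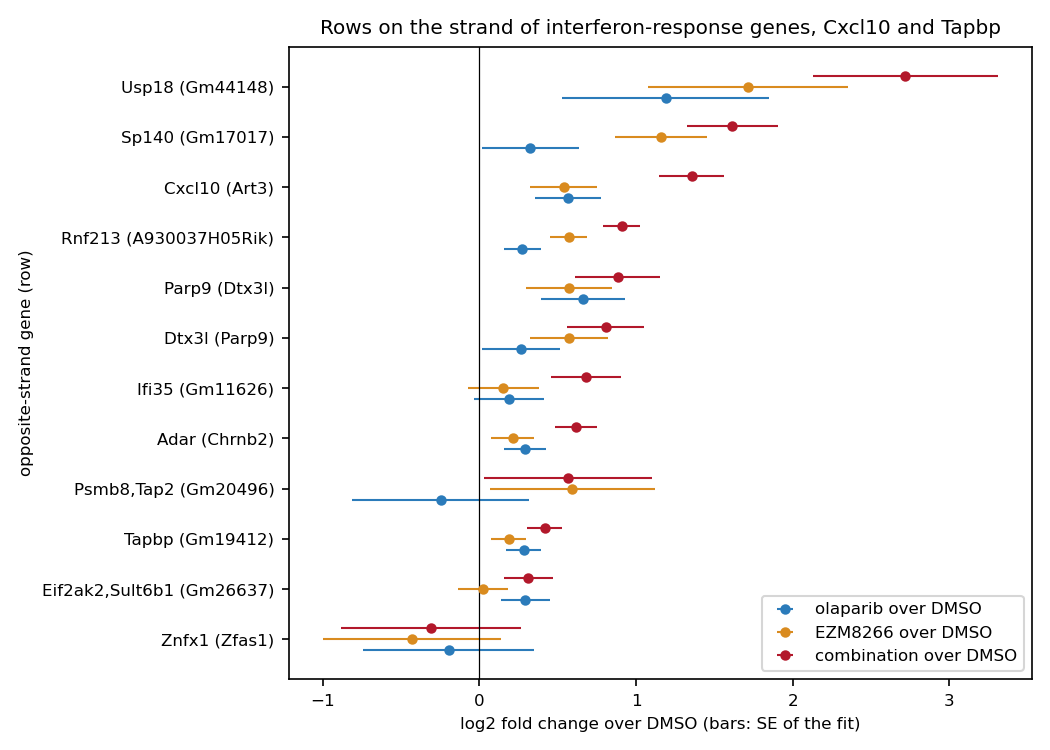
Log2 fold change over DMSO (horizontal axis, bars SE of the fit) of the rows on the strand of the 10 tested interferon response genes, Cxcl10 and Tapbp, for olaparib (blue), EZM8266 (orange) and the combination (red). All 3 comparisons share the 2 DMSO libraries. Cxcl10 (Art3) reads 1.36 with the combination, 0.54 with EZM8266 and 0.57 with olaparib.

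The promoters of Cxcl10, Tmem140 and Trim34a are shown because they hold the interferon response element core GAAANNGAAA. This pattern was searched on both strands in the 250 bases before and 50 bases after each start, and no other motif was searched. The sequences are RefSeq's, build GRCm38.p6, with the match in capitals.
Cxcl10, chr5:92348840-92349139, minus strand: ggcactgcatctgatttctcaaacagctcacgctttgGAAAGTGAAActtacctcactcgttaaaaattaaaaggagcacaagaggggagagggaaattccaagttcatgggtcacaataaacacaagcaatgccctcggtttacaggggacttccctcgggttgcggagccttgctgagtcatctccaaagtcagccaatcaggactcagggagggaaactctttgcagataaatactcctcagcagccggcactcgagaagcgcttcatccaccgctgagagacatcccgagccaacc
Tmem140, chr6:34862896-34863195, plus strand: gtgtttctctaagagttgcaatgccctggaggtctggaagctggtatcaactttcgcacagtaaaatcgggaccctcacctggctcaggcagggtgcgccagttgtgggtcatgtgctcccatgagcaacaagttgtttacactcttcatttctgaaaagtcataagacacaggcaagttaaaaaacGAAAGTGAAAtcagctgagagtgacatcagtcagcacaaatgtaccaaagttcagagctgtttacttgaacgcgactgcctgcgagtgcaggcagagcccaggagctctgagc
Trim34a, chr7:104244207-104244506, plus strand: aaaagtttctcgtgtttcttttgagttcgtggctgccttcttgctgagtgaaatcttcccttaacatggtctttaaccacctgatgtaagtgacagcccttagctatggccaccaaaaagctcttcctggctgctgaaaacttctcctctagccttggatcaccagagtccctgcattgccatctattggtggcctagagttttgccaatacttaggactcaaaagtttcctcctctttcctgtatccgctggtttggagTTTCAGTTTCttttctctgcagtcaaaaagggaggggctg
Of 30 gene names taken from the named rows, 22 matched a RefSeq promoter and 4 of these (18.2%) held the pattern, the fourth being Gm36377. Counted in the same way, by genes with at least 1 promoter holding it, the pattern occurred in 1079 of 27025 genes (3.99%) and in 20 of the 54 interferon list members with a promoter (37%). Of all 32851 promoters, 3.44% held it. The promoters of Cxcl10 and Tmem140 hold the same letters, GAAAGTGAAA, 213 and 63 bases before their starts, and that of Trim34a holds the pattern on the other strand just after its start. A match describes the letters in this window and shows no binding.

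Trim34a encodes a TRIM family protein. The Gm47248 row on its strand (chromosome 7, 104261465 to 104262174), which lies over its exon along its whole length, had 11.8 and 14.2 CPM in DMSO and 46.3 and 40.9 CPM with the combination. No library of the other groups reached the combination, with 16.9 and 14.6 CPM for olaparib and 34 and 21.9 CPM for EZM8266. The log2 fold change over DMSO was 1.72 ± 0.33, short of the threshold at an edgeR adjusted p of 0.0661.

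Abcb1a encodes P-glycoprotein, an efflux pump that carries many drugs, PARP inhibitors such as olaparib among them, out of cells. The Gm42686 row on its strand (chromosome 5, 8731661 to 8735768, inside the gene, with 553 exon bases) had 15.7 and 16.7 CPM in DMSO and 48.3 and 52.6 CPM with the combination. EZM8266 alone gave 49.9 and 43.8 CPM, near the combination with 1 library below it, and olaparib alone 15.4 and 21.1 CPM, near DMSO. The log2 fold change of the combination over DMSO was 1.63 ± 0.27 (edgeR adjusted p 0.0325). The other efflux transporters with a tested row, Abcb1b (Gm5106 row, 0.05 ± 0.30) and Abca3 (D330041H03Rik row, 0.20 ± 0.17), were not called. Abcb1b encodes the second mouse form of P-glycoprotein, and its row had 38.2 and 25.9 CPM in DMSO and 27.2 and 38 CPM with the combination.

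Trdc encodes the constant part of the delta chain of the T cell receptor. The Gm43434 row on its strand (chromosome 14, 54128298 to 54146287, with 96 bases over Trdc exons) had 6.86 and 6.18 CPM in DMSO, 7.36 and 4.07 CPM with olaparib, 36.3 and 59.7 CPM with EZM8266 and 50.4 and 56.5 CPM with the combination. All 4 libraries with EZM8266 were above all 4 without it. The row passed the low-count filter only through the libraries with EZM8266, so this separation adds nothing to its values. The combination rose by 3.03 ± 0.38 over DMSO (edgeR adjusted p 0.00316). T cell markers were at or near 0 in their own rows: 10 of 11 never exceeded 3 counts, Cd3e, Cd8b1, Trbc1 and Cd2 held 0 counts in all 8 libraries, and the 11 rows summed to 2.4 to 5.7 CPM in DMSO and 3.6 to 4.1 CPM with the combination. These rows count the strand opposite to the marker transcripts, so they are a limited check. In the same reading, macrophage markers summed to 88.1 to 89.8 CPM in DMSO and 91.5 to 109.9 CPM with the combination, nearly all from Csf1r, with Adgre1, Lyz2 and Itgam at 0 throughout. Fibroblast markers summed to 110.9 to 144.6 and 106.8 to 116 CPM and endothelial markers to 1.2 to 3.8 and 1.8 to 2.1 CPM. Of 11 markers of ovarian surface epithelium, from which ID8 derives, and mesothelium, Krt8 alone had a tested row on its strand. This keratin's row (Gm36026) had 192 and 224 CPM in DMSO and 217 and 251 CPM with the combination. Through their own rows, the 11 markers summed to 84.3 to 109.5 CPM in DMSO and 115 to 126.4 CPM with the combination. In that sum the Pax8 row had 2.94 and 3.09 CPM in DMSO and 18.1 and 27.3 CPM with the combination. Of the 5 own rows tested, Pax8 included, 3 were above 0 and the median was 0.03, so the markers did not rise together. Of the 11 markers, Krt7, Epcam and Cdh1 never exceeded 1 count. In such bulk libraries, fewer cells with a transcript and less of it per cell cannot be told apart.

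The remaining called rows are noncoding. The Gm26809 row on the strand of the noncoding Gm20186 (chromosome 6, 18844220 to 18847360) had 1090 and 995 CPM in DMSO and 1744 and 1813 CPM with the combination (0.77 ± 0.13, edgeR adjusted p 0.0379). With EZM8266 alone it had 1588 and 1963 CPM, on both sides of the combination. The Gm49314 row (chromosome 15, 38275400 to 38276441), with no annotated gene on the other strand, had 2.94 and 2.47 CPM in DMSO and 29.2 and 16.6 CPM with the combination (3.05 ± 0.52, adjusted p 0.035). With EZM8266 alone this row had 22.7 and 22.9 CPM, between the combination libraries. Its DMSO libraries were at 3 and 4 counts, so the size of this change is poorly set. This row, too, passed the low-count filter only through libraries with EZM8266, alone or in the combination.

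The 16 rows next in order of p over an opposite-strand exon, at a mean of at least 5 CPM, had edgeR adjusted p-values of 0.0661 to 0.222 and were not called, 15 with values above 0 and 1 below. The one below 0 was on the strand of Nrn1, a membrane-anchored neurite growth factor (Fars2 row, chromosome 13, 36117412 to 36726280, shared with Lyrm4). It had 592 and 609 CPM in DMSO and 403 and 393 CPM with the combination (-0.59 ± 0.12, adjusted p 0.0819). Olaparib alone left it at 703 and 613 CPM, and the combination was called lower than olaparib (-0.73 ± 0.12, adjusted p 0.0396). This row and the F13a1 row lie within 500 kb of each other and had differences of opposite sign.

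Values above 0 in this set included Mmp24, a membrane-bound matrix metalloproteinase (BC029722 row), with 4.9 and 4.32 CPM in DMSO and 25.2 and 21.4 CPM with the combination (2.33 ± 0.45, adjusted p 0.0664). The DMSO libraries held 5 and 7 counts in this row, so the size of its change is poorly set. It passed the low-count filter only through libraries with EZM8266, alone or in the combination. Pim1, a serine/threonine kinase downstream of cytokine receptors (Gm26885 row), had 108 and 115 CPM in DMSO and 178 CPM in both combination libraries (0.68 ± 0.14, adjusted p 0.0957). H1f0, a linker histone of resting and differentiated cells (Gm49544 row), had 586 and 497 CPM in DMSO and 868 and 1012 CPM with the combination (0.80 ± 0.17). The Gm49544 row overlaps H1f0 by 163 untranslated exon bases, 7.56% of the row, and its other exon bases lie outside that gene. The groups did not overlap in any of these 3 rows, as in 17.1% of all tested rows with the combination higher. These 3 rows were chosen by small p, so the lack of overlap adds nothing to their values. Lsr, a component of tricellular tight junctions (Gm4673 row), had 242 and 289 CPM in DMSO and 424 and 398 CPM with the combination (0.63 ± 0.14). Heg1, a transmembrane glycoprotein of mesothelium and endothelium (Gm15657 row, shared with Muc13), had 177 and 174 against 259 and 270 CPM (0.59 ± 0.13). The row over the Ugt1a cluster of glucuronosyltransferases (Gm20528), whose isoforms share these exons, had 26.4 and 24.7 against 56.4 and 51.7 CPM (1.08 ± 0.24). The other members of the set were the strands of Gm13415, Gm36377, Pllp, Npr1 and Tmem63a, with log2 fold changes from 0.59 ± 0.14 (Npr1) to 2.87 ± 0.56 (Gm13415, the Pax8 row), besides Trim34a, Usp18, Adar and C130026I21Rik above. The Pax8 row held 3 and 5 counts in DMSO, so the size of its change is poorly set too. It also passed the low-count filter only through libraries with EZM8266.

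In the list of matrix and epithelial-mesenchymal genes, 17 rows were tested, 1 was called lower (Thbs1) and none higher, 8 were above 0, and the median was -0.07. Of all tested rows, 0.219% were called. Over the rows with an opposite-strand exon, 55.4% were above 0 and the median was 0.03. These shares stand beside each list that follows. Fn1, the adhesive glycoprotein fibronectin (Apol7d row), had 701 and 732 CPM in DMSO and 493 and 555 CPM with the combination (-0.45 ± 0.12, edgeR adjusted p 0.335). Tnc, the matrix protein tenascin C (8030451A03Rik row), had 23.5 and 22.2 CPM in DMSO and 10.1 and 9.75 CPM with the combination (-1.19 ± 0.38, adjusted p 0.584). P3h2, which hydroxylates prolines of collagen (Gm4524 row), had -0.38 ± 0.13. Above 0 stood Nid1, the basement membrane linker nidogen 1 (Gm48682 row), with 14.7 and 13 CPM in DMSO and 30.2 and 42.9 CPM with the combination (1.41 ± 0.35, adjusted p 0.222). Values thus spread to both sides, from Thbs1 at -1.21 to Mmp24 at 2.33, the latter from 5 and 7 counts in DMSO.

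Of the chemokine and cytokine list, 6 rows were tested and Cxcl10 alone was called, with a median of 0.05. The membrane chemokine Cxcl16 (Zmynd15 row) had 0.15 ± 0.14 and Ccl25 (Elavl1 row) -0.47 ± 0.36. None of the 4 rows of the MHC class I list was called, 4 were above 0 and the median was 0.34. Tapbp, the chaperone tapasin that loads peptides on MHC class I (Gm19412 row), had 489 and 446 CPM in DMSO and 630 and 617 CPM with the combination (0.42 ± 0.11, edgeR adjusted p 0.335). The 7 rows of the nucleic acid sensing list held no call and had a median of 0.13, with the DNA sensor Cgas (Gm8093 row) at -0.09 ± 0.42 and the transcription factor Irf3 (Bcl2l12 row, shared with Gm15545) at 0.13 ± 0.26. With 0.219% of all rows called, lists of this size without a call say nothing about their members.

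Lists close to the drugs' targets held no call with the combination, which for lists of this size is near the 0.219% of all rows that were called and says nothing about them. Of the 12 rows for H3K9 methylation and retroelement silencing, 3 were above 0 and the median was -0.09. Suv39h1, another H3K9 methyltransferase (Gm14820 row), had 333 and 345 CPM in DMSO and 362 and 358 CPM with the combination (0.08 ± 0.12), and Atf7ip, the partner of Setdb1 (Gm44140 row), had -0.51 ± 0.30. Of the 22 rows for DNA break repair and fork protection, 16 were above 0 and the median was 0.10. Trp53bp1, which shields broken DNA ends from resection (Tubgcp4 row, shared with Zscan29), had 153 and 140 CPM in DMSO and 139 and 149 CPM with the combination (-0.02 ± 0.15), and Fancd2, a core protein of the Fanconi anaemia pathway (Fancd2os row), had 0.25 ± 0.20. The widths of these SE leave changes of such size undetectable here.

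None of the 10 rows for p53 targets and apoptosis was called, and they had a median of 0.08 with 8 above 0, counting the Cela2a and Ctrc rows, which hold identical counts over Casp9. Plk3, a stress-responsive kinase (Tctex1d4 row), had 17.6 and 8.03 CPM in DMSO and 32.2 and 20.5 CPM with the combination (1.10 ± 0.43, edgeR adjusted p 0.919). Gadd45a (E230016M11Rik row) had -0.31 ± 0.16. The 10 rows for the cell cycle and DNA replication held no call and had a median of 0.00 with 5 above 0, among them Ccna2 (cyclin A2, Exosc9 row) at 0.06 ± 0.14 and Plk1, the mitotic kinase (Gm44985 row), at -0.07 ± 0.19. For both lists, having no call is near the 0.219% of all rows that were called and says nothing about the members. Among rows over an opposite-strand exon, 55.4% were above 0.

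**Figure D4:**
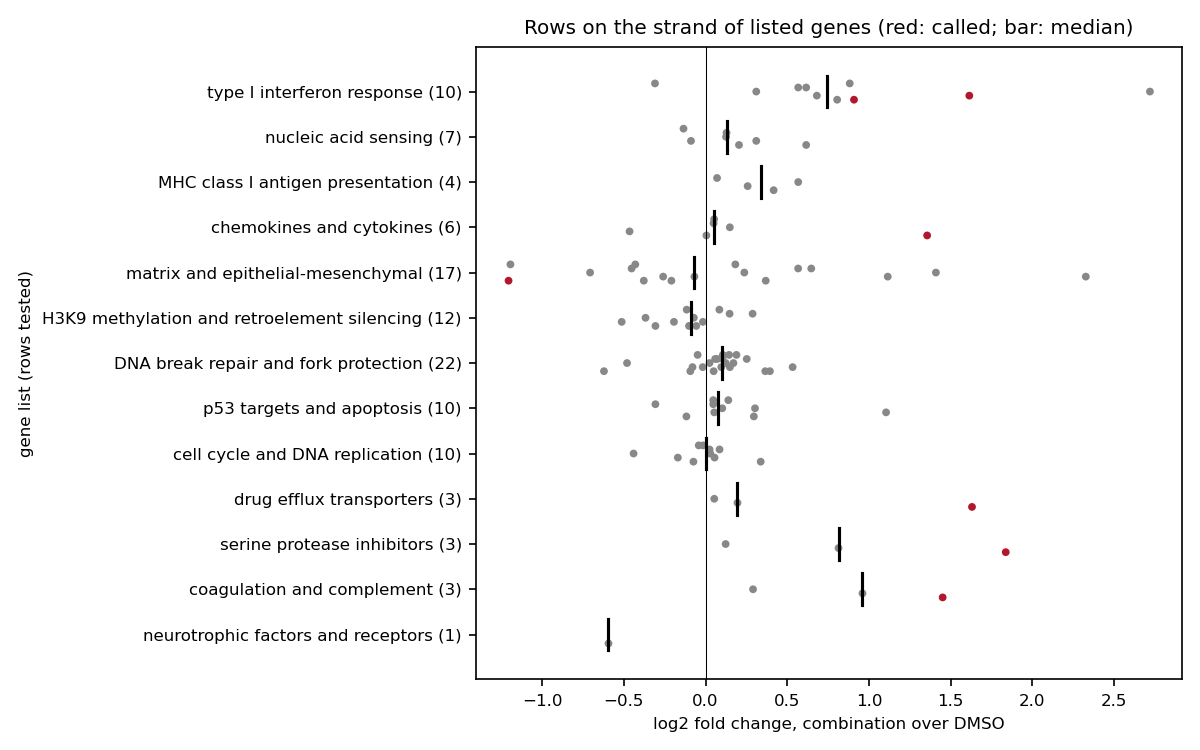
Log2 fold change of the combination over DMSO (horizontal axis) of each tested row on the strand of a listed gene, by list with the number of rows in parentheses; red points passed the threshold and black bars are medians. The interferon response list has a median of 0.74 and the cell cycle list 0.00.

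The genes of the drug targets were thinly covered in their own rows. Parp1 held 22 and 61 counts in DMSO and 19 and 16 with the combination, and Ehmt2 16 and 30 against 18 and 9. The differences were -0.80 ± 0.46 for Parp1 and -0.36 ± 0.44 for Ehmt2, neither called. Ehmt1 and Parp2 held 1 to 10 and 1 to 9 counts and did not pass the filter. Both compounds act on the proteins, and these rows do not measure their activity.

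Against EZM8266 alone, the combination had no called row among 6379 (0.0%) with edgeR, 98 rows at an unadjusted p under 0.05, and 1 called with DESeq2. The row nearest to a call was Gm27177, on the strand of Entpd4b and Loxl2, with 149 and 76 counts with EZM8266 and 20 and 24 with the combination (-2.12 ± 0.31, edgeR adjusted p 0.0801). Among the 14 rows called against DMSO, combination minus EZM8266 ran from -0.21 ± 0.35 (Thbs1 row) to 0.82 ± 0.20 (Cxcl10), with Gm10552 at 0.74 ± 0.27 and Sp140 at 0.45 ± 0.27. Tmem140 (0.04 ± 0.15), Gm20186 (0.00 ± 0.13) and Abcb1a (0.10 ± 0.25) differed by less than their SE. With 2 libraries a group, the median SE of the combination against DMSO was 0.40, and it was 0.15 among the 1166 rows that averaged 100 CPM or more, so a missing call does not show equal levels.

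Against olaparib alone, 6 rows were called (0.0941%), 4 higher and 2 lower, and 243 had an unadjusted p under 0.05. They were Serpinb9b (1.45 ± 0.15), Gdnf (1.10 ± 0.13), F13a1 (1.34 ± 0.15) and Trdc (3.19 ± 0.39) higher, and Thbs1 (Gm29233, -1.17 ± 0.14) and Nrn1 lower, with edgeR adjusted p-values of 0.00205 to 0.0396. The comparisons share the combination libraries and are not independent. Cxcl10 (0.79 ± 0.20, adjusted p 0.423) and Rnf213 (0.63 ± 0.12, adjusted p 0.0849) were not called against olaparib. The interaction of both compounds, the part of the combination beyond the sum of the single log2 effects, had no call with edgeR (smallest adjusted p 0.196, 103 rows at an unadjusted p under 0.05), and it was not run with DESeq2.

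Of the 14 rows called against DMSO, 4 passed with any 1 of the 8 libraries left out and in every other setting tried in which they were tested: Serpinb9b, Gdnf, F13a1 and Thbs1 (Gm29233). Trdc missed the threshold only without DMSO replicate 2 (edgeR adjusted p 0.0567), and Rnf213 without DMSO replicate 2, without combination replicate 2 (at most 0.0649) and without both Gm10800-rich libraries (0.0747). Cxcl10 missed it without DMSO replicate 1, either combination library (at most 0.184) or both Gm10800-rich libraries (0.265), and kept log2 fold changes of 1.18 to 1.63 with 1 library left out. Each other row missed it in 3 to 5 of the 8 fits with 1 library left out, and without the Gm10800-rich pair. None of the 30 named rows changed sign in any setting tried.

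**Figure D5:**
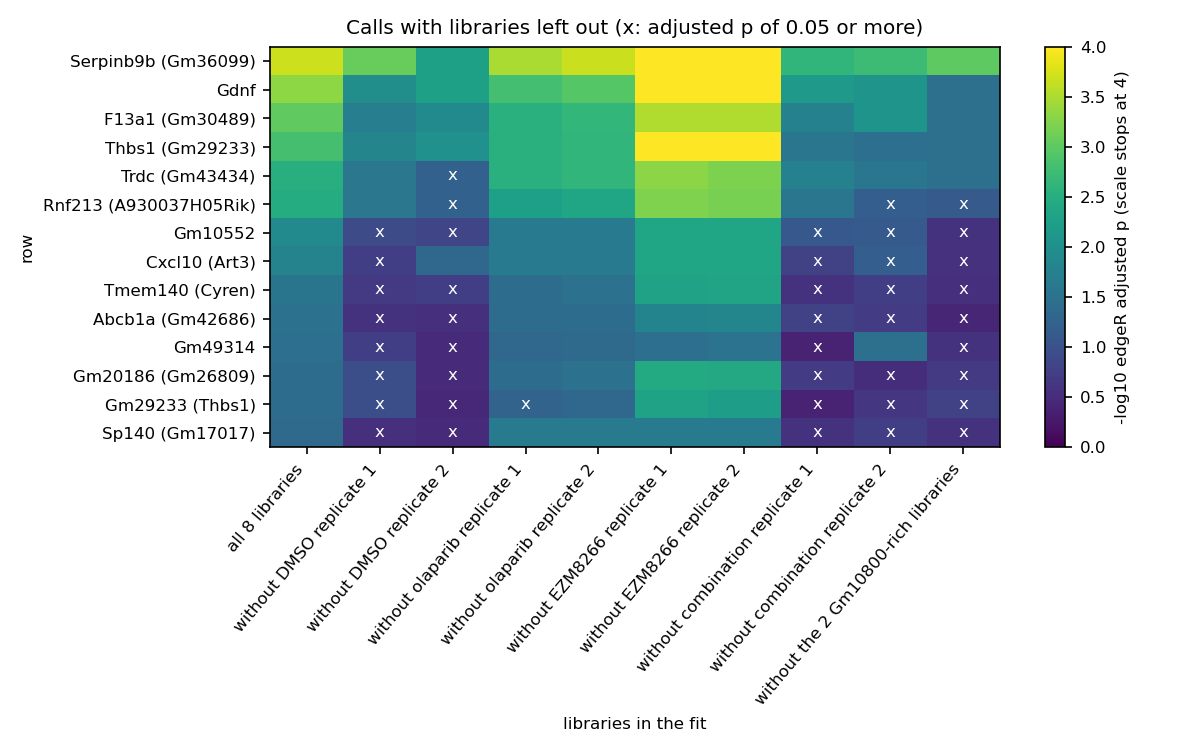
Values of -log10 adjusted p (edgeR, colour scale stopping at 4) of the 14 called rows (vertical axis) with all 8 libraries, with each library left out in turn, and without the 2 Gm10800-rich libraries (horizontal axis); x marks an adjusted p of 0.05 or more. The top 4 rows, Serpinb9b, Gdnf, F13a1 and Thbs1 (Gm29233), carry no mark.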

How the data were processed

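RNA of 8 ID8-OR samples was depleted of ribosomal RNA and sequenced as paired reads, per the labels' protocols. Deposited values are raw counts, 1 whole number per gene and library. The submitters' processing notes name HISAT2 2.1.0 and Subread 1.6.2 on mm10, with quality checks in FastQC 0.11.8 and MultiQC 1.7. Per the file headers, featureCounts counted fragments over GENCODE M18 exons, letting a fragment count for each gene it overlaps, with strand setting 1. The kit marks strand with dUTP, for which that setting counts the opposite strand. Most counts, 83.8 to 88.6% by library, lay in rows sharing at least 50 exon bases with an opposite-strand gene. The rest lay in rows without such an overlap, among them the called Gdnf, Gm49314 and Gm10552 rows.

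Symbols and opposite-strand exons came from GENCODE M21 (mm10), where 54079 rows found a symbol and 67 did not. edgeR 4.0.16 (R 4.3.3) fitted all 8 libraries with 4 group means (4 residual degrees of freedom), TMM scaling and filterByExpr (minimum count 10, minimum total 15). P-values were Benjamini-Hochberg adjusted over 6379 rows. CPM of single rows are TMM-scaled, with SD over 2 libraries. The summed CPM of marker lists are counts over the library total without TMM, so they are not on the same scale. SE is the absolute log2 fold change divided by the square root of F. The code was tested on simulated counts. DESeq2 1.42.0, other scaling, filters, groups, blocks and left-out libraries were tried. Lists are described by counts and medians. The named rows are all called rows, the next by p up to 30, up to 4 rows of each list described, and the drug targets. The members, the named-row rule and the lists were chosen with earlier results of these data known.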

Additional observations from a re-analysis of the deposited data

How the results depend on the processing

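The 14 rows called with the combination against DMSO became 45 (29 higher, 16 lower) with no filter on low counts, 52 (36 and 16) with a filter of 1 CPM in 2 libraries, 27 (21 and 6) with rows over an opposite-strand exon alone and 5 (4 and 1) without the 2 Gm10800-rich libraries. With 1 library left out there were 6 to 19, the lowest without either DMSO library or combination replicate 1. They were 16 with DESeq2, 14 with RLE scaling and 21 (18 and 3) with only the DMSO and combination libraries. In a setting chosen after seeing the data, the leakage share as a covariate gave 59 (42 and 17). The cause of these shifts was not tested.

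The combination against EZM8266, with no call, had 1 with DESeq2, 12 with no filter, 12 with the 1 CPM filter, 1 with exon rows alone, 1 with the leakage covariate and 0 to 3 with 1 library left out. The combination against olaparib, with 6 calls, had 42 with no filter, 48 with the 1 CPM filter, 11 with only those 2 groups, 18 with exon rows alone, 40 with the leakage covariate and 4 to 13 with 1 library left out.

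Whether the replicate numbers pair the samples is not given by the labels. Deviations of same-numbered libraries correlated across rows at 0.22 to 0.29 among the olaparib, EZM8266 and combination groups, and at -0.31, -0.32 and -0.15 between DMSO and olaparib, EZM8266 and the combination, so the numbers were not taken to pair DMSO with the combination. A replicate block gave 15, 0 and 5 calls against DMSO, EZM8266 and olaparib. With the DMSO numbers crossed, chosen after seeing the data, the replicate block gave 73, 3 and 47.

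Depth limits what could be tested: a row needed about 10 counts to be tested, a count of 3 is 1.78 to 3.08 CPM, and most genes have no row on their strand.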

Other observations

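The Gm27177 row, which overlaps 1700 exon bases of Entpd4b, a Golgi enzyme that splits nucleotides, and Loxl2, a lysyl oxidase of the matrix, was named after its values were seen. It had 5.88 and 13 CPM in DMSO and 20.1 and 23.4 CPM in the combination libraries. The olaparib libraries had 19.1 and 20.3 CPM, and those given EZM8266 had 113 and 75.6 CPM. Its log2 fold change over DMSO was 1.11 ± 0.39 with the combination (edgeR adjusted p 0.737). The combination libraries lay near those with olaparib and below those with EZM8266, and the main edgeR fit made no call for that difference.

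In the rows of the interferon list members themselves, which count the strand opposite to their transcripts, 12 of 69 were tested, 9 were above 0, none was called and the median was 0.24. Over all tested rows, 47% were above 0, the median was -0.02 and 0.219% were called. The single called row whose own symbol belongs to a list and that has no partner on the other strand was Gdnf, chosen for mention after its values were seen.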
